A study of Mus musculus with 4 samples.

Results

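The Serpina3 genes of the mouse are a tandem array of serine protease inhibitors (serpins) of clade A, the counterpart of the single human SERPINA3 gene, which encodes alpha-1-antichymotrypsin. The 7 genes described here, Serpina3n, Serpina3m, Serpina3i, Serpina3g, Serpina3f, Serpina3c and Serpina3h, were taken by symbol from a list of 55403 measured features, which holds 14 features with a Serpina3 symbol. They were chosen by their measured levels in these same nuclei, so the levels of Serpina3n across classes and genotypes are a description and support nothing further. Each gene was followed through nuclei classes defined by marker genes in every library.

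The study profiled nuclei of frozen, pooled hippocampus by droplet-based single-nucleus RNA sequencing in 4 libraries, 1 of WT, 2 of PS19 and 1 of TG_PS19. PS19 mice carry a human tau (MAPT) transgene with the P301S mutation, in the 1N4R isoform, driven by the Prnp promoter on a B6;C3 background. TG_PS19 mice carry this transgene and, in addition, the SORLA-Rosa26 transgene, in which a CMV/β-actin promoter element drives overexpression of the sorting receptor SORLA. WT mice carry neither, the groups were littermates of the crosses, and the age of the animals and the number pooled are not given in the sources used here. WT and TG_PS19 had no replicate, and whether the PS19 pair came from separate pools is not stated. The p-values therefore rest on the spread within the PS19 pair, pooled in part over genes, which may be technical.

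A serpin offers its reactive loop to a protease as bait and, once cut, locks the protease in an inactive complex. Serpina3n is the best known member in the nervous system: it is secreted, is a classical marker of reactive astrocytes and of oligodendrocytes in diseased tissue, and is an acute-phase gene that responds to cytokines through STAT3 and to glucocorticoids. The other members are known mainly from liver and from blood and immune cells, and Serpina3g in particular as an inhibitor of cathepsins in activated lymphoid and myeloid cells.

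All 14 features lie side by side on chromosome 12 between positions 104112724 and 104414329 (build GRCm38, GENCODE M21), a stretch of 301.6 kb. Serpina3n (ENSMUSG00000021091.8) lies at the end of the array on the plus strand, at chr12:104406729-104414329. Serpina3c (ENSMUSG00000066361.3) is on the minus strand at chr12:104146382-104153870. The other members are on the plus strand: Serpina3f at chr12:104214544-104221129, Serpina3g at chr12:104236245-104241939, Serpina3h at chr12:104247905-104253669, Serpina3i at chr12:104263122-104269372 and Serpina3m at chr12:104338486-104394257. Serpina3h is annotated as a transcribed unprocessed pseudogene, and the Serpina3m model spans Serpina3k and Serpina3l-ps on the same strand. None of the other 6 members overlaps another gene of GENCODE M21.

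The promoter windows show how alike these neighbours are. The 250 bases before the start site, from RefSeq (build GRCm38.p6), were matched for 5 of the 7 members, and 3 of them are printed, 5′ to 3′ on the strand of the gene: the one abundant gene, its closest match in sequence, and one that holds a STAT motif. They are the windows of Serpina3n (chr12:104406458-104406707, plus strand), Serpina3c (chr12:104153873-104154122, minus strand) and Serpina3i (chr12:104262872-104263121, plus strand). Capitals mark 2 motifs, AGAACA, a half-site of the glucocorticoid receptor, and TTCNNNGAA, the STAT motif.
Serpina3n: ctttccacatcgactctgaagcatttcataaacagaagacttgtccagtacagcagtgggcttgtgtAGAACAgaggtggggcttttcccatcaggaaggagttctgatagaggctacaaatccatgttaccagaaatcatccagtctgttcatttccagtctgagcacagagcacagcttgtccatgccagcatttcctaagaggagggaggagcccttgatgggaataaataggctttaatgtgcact
Serpina3c: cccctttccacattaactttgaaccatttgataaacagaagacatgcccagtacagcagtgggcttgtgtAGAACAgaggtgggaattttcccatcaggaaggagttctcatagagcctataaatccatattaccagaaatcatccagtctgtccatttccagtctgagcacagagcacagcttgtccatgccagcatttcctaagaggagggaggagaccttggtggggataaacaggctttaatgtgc
Serpina3i: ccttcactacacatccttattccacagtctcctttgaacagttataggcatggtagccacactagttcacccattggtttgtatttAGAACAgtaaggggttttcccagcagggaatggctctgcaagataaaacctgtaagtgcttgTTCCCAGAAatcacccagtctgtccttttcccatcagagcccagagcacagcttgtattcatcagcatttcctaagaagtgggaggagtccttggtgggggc
The windows of Serpina3n and Serpina3c were 90.5% identical over 253 aligned positions, 6 of them gaps. Every other pair among the 5 windows was between 39.5% and 66.2% identical, and Serpina3n and Serpina3i shared 63.1%. On either strand, AGAACA was found at -183 in Serpina3n, at -180 in Serpina3c and at -164 in Serpina3i, counted from the start site to the first base of the match. This motif was held by 16.1% of 32817 promoter windows of the same length. TTCNNNGAA was found in the windows of Serpina3i (-102), Serpina3g (-33) and Serpina3f (-121), against 7.01% of all windows, and these letters were not in the windows of Serpina3n and Serpina3c. A C/EBP motif, TTGCNNAA, was found in the window of Serpina3f, at -150 and -22, against 9.57% of all windows. These positions of Serpina3f are for the first of its 2 RefSeq starts, and the window of the other also held AGAACA, at -94. The 3 motifs do not overlap one another in these windows, and a match is a description of the letters only.

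Reads of such alike genes can be hard to assign, so the transcripts were compared in windows of 90 bases. Of 1975 such windows in the Serpina3n transcript, 14 (0.71%) recurred in another Serpina gene, all in Serpina3e-ps, and 0 of the 181 windows nearest its 3′ end did. Serpina3c shared 0 of its 2124 windows. The shares were 7.32% in Serpina3m, all of it with Serpina3k, 6.33% in Serpina3h, 4.98% in Serpina3g, 4.26% in Serpina3f and 3.47% in Serpina3i. Near the 3′ end, which this chemistry reads, Serpina3m, Serpina3f and Serpina3h shared 0 windows, Serpina3i 2.76% and Serpina3g 5.11%. By these windows alone, counts of Serpina3i and Serpina3g are the less certain ones. The windows hold spliced transcripts only, so they do not cover intron reads or the overlap of Serpina3m with Serpina3k and Serpina3l-ps.

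Serpina3n carried nearly all transcripts of the array. Over the nuclei kept, it had 264 UMIs (unique molecular identifiers, each a counted RNA molecule) in WT, 303 and 293 in PS19 replicates 1 and 2, and 183 in TG_PS19. These 1043 UMIs were 95.6% of all UMIs of the 7 members, and the other 6 members had 48 UMIs together. Serpina3m had 1 UMI in WT, 2 and 6 in PS19 replicates 1 and 2 and 5 in TG_PS19. Serpina3h had 5, 3, 3 and 2 in the same order. Serpina3i had 2, 5, 1 and 1. Serpina3g had 3, 1, 2 and 1, Serpina3c 1, 0, 1 and 2, and Serpina3f a single UMI, in TG_PS19. The 7 Serpina3 features outside the list had 2 UMIs in all, 1 of Serpina3b and 1 of Serpina3e-ps. No member other than Serpina3n reached more than 6 UMIs in a library, and differences between libraries were not detectable for them at this depth.

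The few UMIs of the minor members were spread over classes. Serpina3g had 4 of its 7 UMIs in endothelial nuclei, 2 in WT and 2 in PS19 replicate 2, and the single Serpina3f UMI was endothelial as well. Serpina3i had 4 of its 9 UMIs in astrocytes, 3 in PS19 replicate 1 and 1 in PS19 replicate 2. Serpina3m had 6 of its 14 UMIs in oligodendrocytes, 1 and 4 in PS19 replicates 1 and 2 and 1 in TG_PS19. Serpina3h had 5 of its 13 UMIs in CA1 pyramidal neurons, 3 of them in WT, and Serpina3c 3 of its 4 in dentate granule neurons. Among these genes only single UMIs were found in any other class and library, apart from 2 of Serpina3h in astrocytes of PS19 replicate 1, and no order of classes can be read from so few.

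The libraries held between 4643 and 12762 barcodes and between 20064025 and 48670533 UMIs, and 4467 to 11458 nuclei were kept. Human MAPT had 0 UMIs in WT and 331 to 463 in the other libraries, and human SORL1 had 2219 UMIs in TG_PS19 against 0 to 7 elsewhere, as the labels say. Library pairs shared 5 to 32 barcodes. Doublet candidates were left out at 10.2% of WT, 3.70% and 3.94% of PS19 and 7.78% of TG_PS19 barcodes, and they had carried 126 Serpina3n UMIs. Nuclei of WT and PS19 were nearly all called by Y-linked UMIs where a call was possible, while TG_PS19 held both kinds, with 481 astrocytes called by Y-linked UMIs and 865 called by Xist. Clusters named astrocyte and oligodendrocyte had 7 to 9 of 9 and 8 of 8 listed markers raised, and 1 small cluster of 75 nuclei, counted with the oligodendrocytes, had 6 of 6 of the newly formed oligodendrocyte list.

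Serpina3n was low in oligodendrocytes, the myelin-forming glia, of WT and TG_PS19 and high in both PS19 libraries. The level is given as CPM, the usual scaling of a gene's UMIs by the total UMIs of its class, with an exact 95% Poisson interval that covers counting error only. In WT oligodendrocytes Serpina3n had 23 UMIs, or 3.46 CPM (interval 2.19 to 5.19). In PS19 replicate 1 it had 114 UMIs, or 23.4 CPM (19.3 to 28.1), and in PS19 replicate 2 it had 109 UMIs, or 17.5 CPM (14.3 to 21.1). In TG_PS19 it had 13 UMIs, or 2.01 CPM (1.07 to 3.43). Both PS19 levels lay above those of WT and TG_PS19, the intervals of PS19 did not overlap those of the other genotypes, and WT and TG_PS19 overlapped each other. The PS19 mean was 20.4 ± 4.16 CPM (SD, n = 2), which is 5.90 times the WT level and 10.2 times the TG_PS19 level.

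The same genotypes were high and low in astrocytes, the glia that support neurons and wall off damage. Serpina3n had 32 UMIs in WT astrocytes, or 3.87 CPM (2.65 to 5.46). It had 92 UMIs in PS19 replicate 1, or 37.6 CPM (30.3 to 46.1), and 59 in PS19 replicate 2, or 17.7 CPM (13.5 to 22.8). TG_PS19 astrocytes had 15 UMIs, or 2.81 CPM (1.57 to 4.64). The PS19 mean was 27.7 ± 14.1 CPM (SD, n = 2), 7.15 times WT and 9.84 times TG_PS19. The PS19 pair itself differed by a factor of 2.13 in astrocytes, with intervals that did not overlap, against 1.34 in oligodendrocytes.

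**Figure D1:**
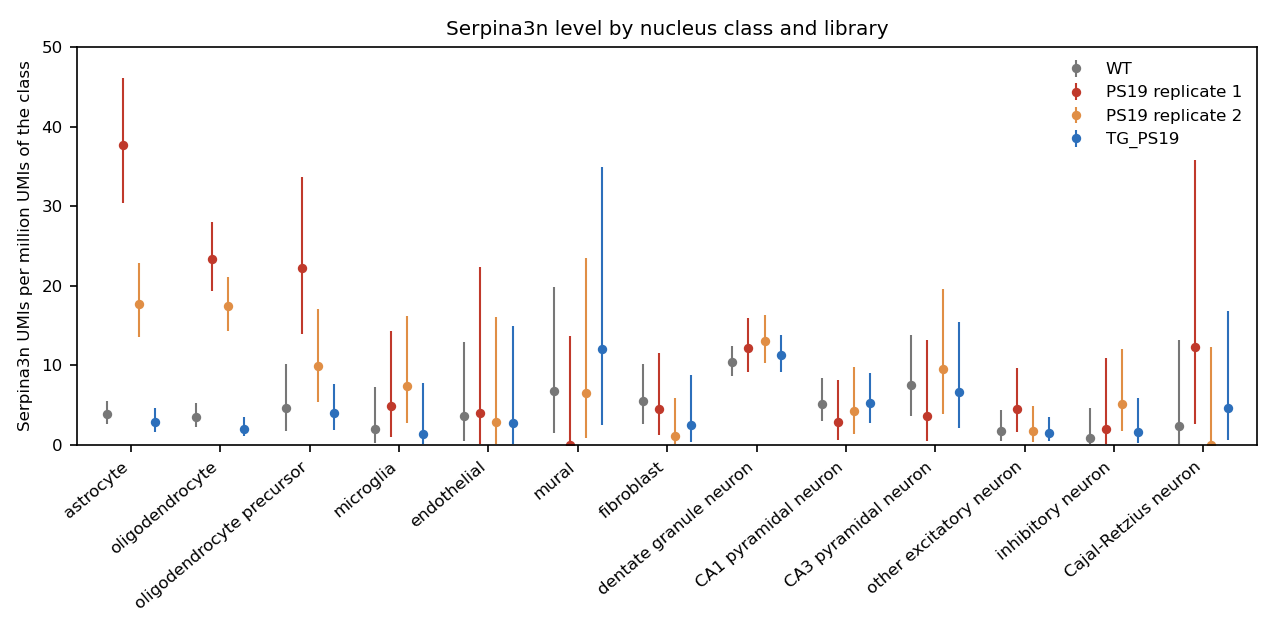
Serpina3n level in 13 classes of nuclei (horizontal axis) in CPM of the class (vertical axis), with 1 point per library and bars for the exact 95% Poisson interval. In astrocytes and oligodendrocytes both PS19 libraries sit between 17.5 and 37.6 CPM and WT and TG_PS19 between 2.01 and 3.87, while the 4 libraries lie between 10.4 and 13.1 in dentate granule neurons.

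Oligodendrocyte precursors, the dividing cells that give rise to oligodendrocytes, had 6 Serpina3n UMIs in WT (4.64 CPM), 22 and 13 in PS19 replicates 1 and 2 (22.2 and 9.94 CPM) and 9 in TG_PS19 (3.98 CPM). The PS19 levels were again the higher ones, but the interval of PS19 replicate 2, 5.29 to 17.0, overlapped that of WT, 1.70 to 10.1. Microglia, the resident immune cells, held 2, 3, 6 and 1 UMIs in WT, PS19 replicates 1 and 2 and TG_PS19, or 2.01, 4.87, 7.42 and 1.38 CPM, with overlapping intervals. Cluster 7 held most WT and TG_PS19 microglia and cluster 12 most PS19 microglia, so these 4 values describe unlike nuclei. In the same order, endothelial nuclei had 3.57, 4.01, 2.87 and 2.68 CPM from 1 or 2 UMIs each, and fibroblasts had 5.52, 4.48, 1.05 and 2.44 CPM from 1 to 10 UMIs. Mural nuclei had 3 UMIs in WT, 0 in PS19 replicate 1, where 3 counts would be 11.1 CPM, 2 in PS19 replicate 2 and 3 in TG_PS19. In these vascular and meningeal classes no genotype stood above the counting error.

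Dentate granule neurons, the principal cells of the dentate gyrus, had Serpina3n in every library at nearly the same level. They held 116 UMIs in WT (10.4 CPM, 8.58 to 12.5), 52 and 78 in PS19 replicates 1 and 2 (12.2 CPM, 9.08 to 15.9, and 13.1 CPM, 10.3 to 16.3) and 93 in TG_PS19 (11.3 CPM, 9.11 to 13.8). All intervals overlapped. CA1 pyramidal neurons had 5.13 CPM in WT, 2.78 and 4.18 in PS19 and 5.17 in TG_PS19, and CA3 pyramidal neurons had 7.48, 3.63, 9.48 and 6.59. Other excitatory neurons had 1.70, 4.42, 1.65 and 1.49 CPM and inhibitory neurons 0.81, 1.96, 5.16 and 1.61, each from 6 or fewer UMIs. Cajal-Retzius neurons had 1, 3, 0 and 2 UMIs. T cells and ependymal nuclei had 0 UMIs in all libraries that held them, at most 26 nuclei a library. Border macrophages had 1 UMI, in PS19 replicate 2, as did the choroid plexus.

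The order of classes therefore differed between libraries, also between the PS19 replicates. In WT, dentate granule neurons had the highest level of the 11 tested classes, and their interval lay above those of astrocytes and oligodendrocytes. It overlapped that of mural nuclei, the next in order at 6.80 CPM. It also overlapped those of fibroblasts, oligodendrocyte precursors, endothelial nuclei and Cajal-Retzius neurons. In TG_PS19, mural nuclei (12.0 CPM from 3 UMIs) and dentate granule neurons came first and did not differ beyond counting error. In PS19 replicate 1, astrocytes came first, above the interval of oligodendrocytes, and oligodendrocytes and their precursors came next at 23.4 and 22.2 CPM and overlapped each other. The intervals of the precursors and of Cajal-Retzius neurons also overlapped that of astrocytes. In PS19 replicate 2, astrocytes and oligodendrocytes were level at 17.7 and 17.5 CPM, and the interval of dentate granule neurons overlapped both.

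Counted as shares of a library's Serpina3n UMIs, astrocytes, oligodendrocytes and their precursors together held 23.1% in WT, 75.2% and 61.8% in PS19 replicates 1 and 2 and 20.2% in TG_PS19. These classes made up 55.6%, 60.3%, 59.8% and 58.1% of nuclei. Dentate granule neurons alone held 43.9% of the Serpina3n UMIs of WT and 50.8% of those of TG_PS19, against 17.2% and 26.6% in the PS19 libraries.

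**Figure D2:**
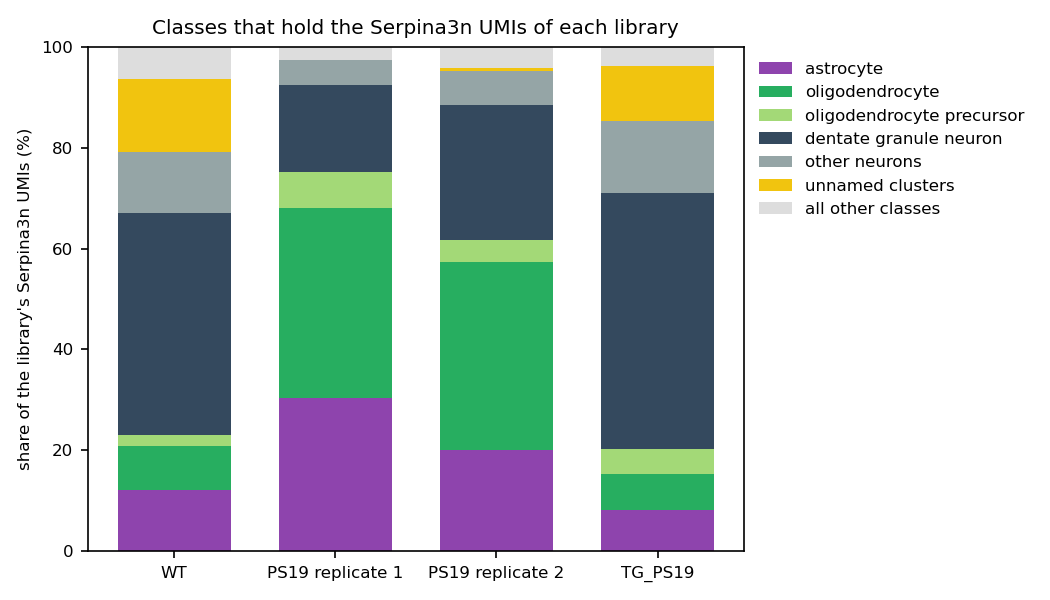
Share of each library's Serpina3n UMIs (vertical axis, %) held by each class, 1 stacked bar per library. Astrocytes, oligodendrocytes and their precursors together reach 75.2% and 61.8% in the PS19 libraries and 23.1% and 20.2% in WT and TG_PS19, where dentate granule neurons are the largest single block.

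Few nuclei had a Serpina3n UMI at all. In oligodendrocytes the share was 0.70% of 3266 nuclei in WT (exact binomial 95% interval 0.45% to 1.05%), 5.24% of 1851 in PS19 replicate 1 (4.27% to 6.36%), 5.15% of 1902 in PS19 replicate 2 and 0.40% of 3007 in TG_PS19 (0.21% to 0.70%). In astrocytes it was 1.16%, 9.52%, 6.92% and 0.91% in the same order. Endothelial nuclei, taken as a class with little of the gene, had 0.54%, 0.77%, 0.65% and 0.42%, at median depths of 1333 to 1965 UMIs against 1937 to 3051.5 in oligodendrocytes. The WT and TG_PS19 shares of oligodendrocytes thus lay near that low class, and those of PS19 well above it. Thinning each nucleus to 1000 UMIs gave 0.34%, 2.18%, 1.79% and 0.14% in oligodendrocytes and 0.33%, 2.75%, 1.73% and 0.31% in astrocytes, in the same order of genotypes. In dentate granule neurons, which are deeper nuclei, the share ran from 6.75% to 12.8% before thinning and from 0.91% to 1.89% after it.

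Most of these nuclei held a single molecule. All 32 positive WT astrocytes and all 15 of TG_PS19 had exactly 1 UMI, whereas 17 of 59 in PS19 replicate 1 and 7 of 48 in PS19 replicate 2 had at least 2, up to 7 and 5 UMIs in one nucleus. In oligodendrocytes, 16 of 97 and 10 of 98 positive PS19 nuclei had at least 2, against 0 of 23 in WT and 1 of 12 in TG_PS19. Dentate granule neurons had such nuclei in every library, 8 among 108 positive nuclei of WT, 3 among 49 and 8 among 70 of PS19, and 8 among 85 of TG_PS19.

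Across all genes, the fit of summed counts (edgeR's quasi-likelihood test, called at a Benjamini-Hochberg adjusted p under 0.05 within a class) could place Serpina3n in 4 of 11 tested classes. These 4 were the only ones of 77 pairs of a member and a class that passed its filter on low counts, since no other member passed in any class. Of these 4 pairs, 2 were called in PS19 against WT, where 3.15% of 134167 pairs of gene and class were called, 2 in TG_PS19 against PS19, where 5.06% were, and 0 in TG_PS19 against WT, where 2.33% were. At an unadjusted p under 0.05 the numbers were 3, 3 and 0. Since the gene was chosen by this contrast, nothing is read from these counts.

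The called pairs were oligodendrocytes and astrocytes. In oligodendrocytes the log2 fold change of Serpina3n was 2.58 (SE 0.30) in PS19 against WT and -3.26 (SE 0.35) in TG_PS19 against PS19. In astrocytes it was 2.75 (SE 0.31) and -3.06 (SE 0.36). By size of the fold change in either direction, Serpina3n came 99th and 30th of 16332 genes in oligodendrocytes and 77th and 87th of 16543 in astrocytes. TG_PS19 against WT gave -0.68 (SE 0.50) in oligodendrocytes and -0.31 (SE 0.48) in astrocytes, neither of them called. The direction in astrocytes was not stable: it was 0.47 with the TG_PS19 nuclei called by Y-linked UMIs and 0.04 after thinning to 1000 UMIs. In oligodendrocytes the value was -0.25 with the Y-called and -1.98 with the Xist-called TG_PS19 nuclei, neither called. The lone WT and TG_PS19 libraries were assumed to vary like the PS19 pair. That pair enters both of the first comparisons, which are therefore not independent. Each SE is the size of the log2 fold change over the square root of the F statistic. The F statistic uses a spread pooled in part over genes, so an SE is not the spread of Serpina3n between replicates.

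In oligodendrocyte precursors the values were 1.76 (SE 0.70), -1.85 (SE 0.63) and -0.10 (SE 0.91), and none was called. Without PS19 replicate 1 the first pair became 1.14 and -1.24, a move of more than 1.5 times. In dentate granule neurons they were 0.31 (SE 0.23), -0.07 (SE 0.24) and 0.24 (SE 0.26), none called. In astrocytes, leaving out PS19 replicate 1 gave 2.17 and -2.48.

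Within astrocytes the PS19 signal lay mainly in the clusters led by Gfap, the intermediate filament gene of reactive astrocytes. The clusters were formed on these same nuclei, so these values are a description. In cluster 8, led by Gfap and Tnc, Serpina3n stood at 1.82 CPM in WT, 74.4 and 24.1 in PS19 replicates 1 and 2 and 2.73 in TG_PS19. In cluster 14, led by Myoc and Gfap, it stood at 2.34, 65.9, 28.1 and 22.0 CPM, the last from 4 UMIs with an interval of 5.99 to 56.3. In cluster 17, led by Adgrv1, it stood at 9.01, 65.4, 26.3 and 3.12 CPM from 1 to 7 UMIs each. In cluster 1, the Gfap-poor cluster led by Rorb and Gpc5 that held 3967 nuclei, it stood at 3.88 CPM in WT (2.49 to 5.77), 4.87 and 8.91 in PS19, with lower bounds of 1.79 and 4.87, and 1.95 in TG_PS19 (0.84 to 3.84). Here the WT interval overlapped those of both PS19 libraries.

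Both Gfap-led clusters together held 19.3% of WT astrocytes, 43.1% and 44.1% of PS19 astrocytes and 17.5% of TG_PS19 astrocytes. Of the astrocytes' Serpina3n UMIs they held 9.38% in WT (3 UMIs), 85.9% in PS19 replicate 1 (79 UMIs), 66.1% in PS19 replicate 2 (39 UMIs) and 6 of the 15 UMIs in TG_PS19. With the cluster levels of each library weighted by the make-up of WT astrocytes, the class level was 3.87 CPM in WT, 21.3 and 13.1 in PS19 and 3.17 in TG_PS19. The PS19 levels at this fixed make-up were thus lower than the 37.6 and 17.7 CPM measured, and still above WT and TG_PS19.

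Oligodendrocytes differed from this, with a similar PS19 level in each large cluster. In cluster 0, with Il33 among its leading genes, Serpina3n stood at 3.40 CPM in WT and 29.0 and 15.5 in PS19, and TG_PS19 had 4 UMIs in 1406 nuclei. In cluster 3, led by Enpp6 and Anln, it stood at 3.83, 19.6, 17.7 and 3.23 CPM. In cluster 4, led by Slc13a1 and Bfsp2 among others, it had 3 UMIs in WT and 30 and 34 in PS19, and 0 UMIs were found in 453 TG_PS19 nuclei, where 3 counts would be 3.30 CPM. At the make-up of WT oligodendrocytes the class levels were 3.46, 24.6, 17.0 and 1.87 CPM, close to those measured. The difference between astrocyte and oligodendrocyte clusters was not tested.

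**Figure D3:**
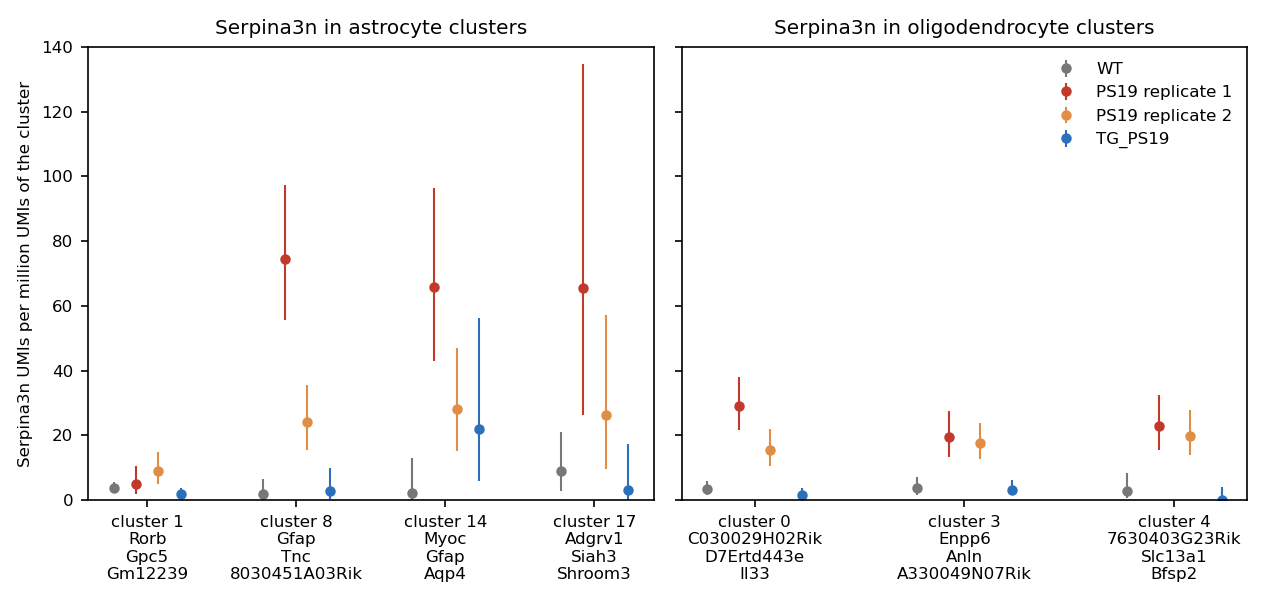
Serpina3n level in the clusters of at least 100 nuclei within astrocytes (left) and oligodendrocytes (right), in CPM of the cluster (vertical axis) with exact 95% Poisson intervals, 1 point per library; the first 3 leading genes stand under each cluster. In astrocytes the PS19 points run from 4.87 CPM in cluster 1 to 74.4 CPM in cluster 8, while in oligodendrocytes they stay between 15.5 and 29.0 CPM in all 3 clusters.

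Several measures moved with the genotypes or bear on the classes. The 9 astrocyte markers summed to 648 CPM in WT oligodendrocytes, 295 and 249 in PS19 and 472 in TG_PS19, with 0 markers at 0. Astrocytes were 24.0% of nuclei in WT, 13.9% and 14.7% in PS19 and 18.3% in TG_PS19, and the part of RNA from other nuclei in these levels was not tested. In PS19 oligodendrocytes these markers stood at 1.87% and 1.61% of their astrocyte level and Serpina3n at 62.1% and 98.7% of its own. In WT and TG_PS19 oligodendrocytes the markers stood at 3.95% and 2.90% and Serpina3n at 89.4% and 71.4%. In dentate granule neurons the same markers stood at 5.59% to 6.26% of their astrocyte level in all libraries. The 8 microglia markers summed to 234, 158, 116 and 173 CPM in oligodendrocytes of WT, PS19 replicates 1 and 2 and TG_PS19. In bulk sums such as these, a change in the share of strongly positive nuclei and a change in every nucleus cannot be told apart.

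Since sex differed between libraries, TG_PS19 was also read by sex call. In oligodendrocytes Serpina3n had 5 UMIs in 805 nuclei called by Y-linked UMIs (2.70 CPM), 2 in 1140 called by Xist (0.79 CPM) and 6 in 1062 without a call (2.86 CPM). In astrocytes it had 8 UMIs in 481 nuclei called by Y-linked UMIs (4.90 CPM), 6 in 865 called by Xist (2.14 CPM) and 1 in 297 without a call (1.11 CPM). All of these stayed below both PS19 libraries, and their intervals overlapped one another. With the Y-called TG_PS19 nuclei alone, TG_PS19 against PS19 gave -2.83 in oligodendrocytes and -2.28 in astrocytes. With the Xist-called nuclei alone it gave -4.56, from 2 UMIs, and -3.43. Each was called, and the Y-called and Xist-called values lay more than 1.5 times apart.

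Some unnamed nuclei had more Serpina3n than any named WT class. Cluster 21 held 285 WT nuclei and 1 of TG_PS19, was led by Sntb1, Fabp7 and Frzb among others, and had 36 Serpina3n UMIs in WT, or 46.5 CPM (32.5 to 64.3). It also had C4b at 138 CPM and Fabp7 at 716 CPM, while Gfap was at 11.6 CPM and Aqp4 at 24.5. These 36 UMIs were more than those of all 2747 named WT astrocytes, and the cluster was found in 1 library, so that it may be a property of that library. The closest marker list of cluster 21 was that of astrocytes, with 3 of 9 raised. The named WT classes leave its nuclei out, so the WT astrocyte level given above is without them. Cluster 9, with Ttr and Xist among its leading genes, held 655 TG_PS19 nuclei at a low median depth and 19 UMIs, or 21.8 CPM (13.1 to 34.0). Its closest marker list was that of oligodendrocytes, with 2 of 8 raised, and it had Ttr at 1081 CPM in TG_PS19. The named TG_PS19 classes leave these nuclei out.

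The pathway that is known to drive Serpina3n was followed with a list of its genes. Of 22 listed genes of cytokine and STAT3 signalling, 18 were tested in astrocytes, and 7 rose and 1 fell in PS19 against WT, with a median log2 fold change of 0.48 against 0.01 over all genes, of which 3.20% rose. In TG_PS19 against PS19, 1 rose and 9 fell, with a median of -0.87 against -0.01, and 3.88% of all genes fell. In oligodendrocytes 15 were tested, and 3 rose in the first comparison and 3 fell in the second, where 3.06% and 3.19% of all genes did so, and the median in PS19 against WT was 0.04. The list was not particular to these classes: in PS19 against WT, 3 of 14 rose in dentate granule neurons, where Serpina3n was level, against 1.39% of all genes, and 3 of 19 rose in microglia, against 4.74%.

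Socs3, the feedback inhibitor that STAT3 induces, had 15 UMIs in WT astrocytes (1.81 CPM), 53 and 51 in PS19 (21.7 and 15.3 CPM) and 7 in TG_PS19 (1.31 CPM). By edgeR, PS19 exceeded WT by 3.28 on the log2 scale (SE 0.39, adjusted p = 2.4e-14). TG_PS19 differed from PS19 by -3.59 (SE 0.47, adjusted p = 4.1e-12 by edgeR). In oligodendrocytes Socs3 had 5, 37, 35 and 3 UMIs and was called in both comparisons, at 3.12 (SE 0.58) in PS19 against WT. Both PS19 libraries were above the others in both classes.

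Osmr, the receptor subunit for oncostatin M, stood at 11.0 CPM in WT astrocytes, 63.8 and 57.6 in PS19 and 11.8 in TG_PS19, with log2 fold changes of 2.43 (SE 0.21) and -2.17 (SE 0.23), both called. In oligodendrocytes it had between 1 and 4 UMIs in each library and was not tested. Stat3 itself stood at 90.8, 149, 169 and 72.3 CPM in astrocytes and had 413, 602, 779 and 324 UMIs in oligodendrocytes. It was called in both classes and both comparisons, at 0.78 and -0.96 in astrocytes and 1.04 and -1.25 in oligodendrocytes. Il6ra, the interleukin 6 receptor, had 11, 13, 17 and 2 UMIs in astrocytes and was called lower in TG_PS19 than in PS19 (edgeR adjusted p = 0.0052). Nr3c1, the glucocorticoid receptor, went the other way, at 237 CPM in WT astrocytes, 173 and 191 in PS19 and 233 in TG_PS19, and was the one listed gene that fell in PS19 and rose in TG_PS19.

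Many genes known from reactive astrocytes were higher in PS19 astrocytes as well. Of 19 listed pan-reactive and acute-phase genes, 15 were tested in astrocytes, and 11 rose in PS19 against WT (median 2.09), where 3.20% of all genes did, and 10 fell in TG_PS19 against PS19 (median -2.17), where 3.88% did. Gfap stood at 122 CPM in WT astrocytes, 578 and 554 in PS19 and 99.5 in TG_PS19. Cd44, a receptor for hyaluronan, stood at 10.4, 69.5, 70.2 and 11.6 CPM, with log2 fold changes of 2.72 (SE 0.21) and -2.41 (SE 0.22). C3, the central complement component, had 17, 39, 36 and 6 UMIs, and changed by 2.63 (SE 0.43) and -3.34 (SE 0.54). Cxcl10, a chemokine induced by interferon, had 21, 140, 78 and 3 UMIs and was called in both comparisons, at 3.90 (SE 0.31) in PS19 against WT. Its UMIs came from few nuclei, since at most 6.25% of Serpina3n-positive PS19 astrocytes and 2.32% of the others had one. Lcn2, another acute-phase gene, had 0 UMIs in WT and TG_PS19 astrocytes and 7 and 4 in PS19. In oligodendrocytes 9 of this list were tested and only Gfap and Stat3 rose in PS19 against WT, where 3.06% of all genes did. Gfap was low there, with 13 UMIs in WT, 32 and 25 in PS19 and 13 in TG_PS19. Stat3 and Osmr are also on the list of cytokine and STAT3 signalling, so the counts of these lists are not separate.

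Of 12 listed genes of disease-associated oligodendrocytes, 11 were tested in oligodendrocytes, and 7 rose in PS19 against WT (median 1.69), where 3.06% of all genes did, and 8 fell in TG_PS19 against PS19 (median -1.32), where 3.19% did. C4b, a complement component, stood at 30.7 CPM in WT, 307 and 233 in PS19 and 23.6 in TG_PS19, with log2 fold changes of 3.17 (SE 0.16) and -3.44 (SE 0.16). H2-D1, a class I histocompatibility gene, stood at 21.5, 92.2, 70.4 and 13.3 CPM, and changed by 1.95 (SE 0.17) and -2.54 (SE 0.18). Plin4, a lipid droplet gene, had 69, 244, 324 and 102 UMIs and changed by 2.33 (SE 0.20) and -1.63 (SE 0.18). Sgk1, a kinase gene induced by glucocorticoids, was an exception: at 62.3 CPM in WT, 207 and 184 in PS19 and 162 in TG_PS19, it did not pass the test in TG_PS19 against PS19 and was called higher in TG_PS19 than in WT, by 1.49 (SE 0.16). In oligodendrocyte precursors C4b changed by 3.46 (SE 0.33) and -3.47 (SE 0.29), both called. The list was not particular to oligodendrocytes. In PS19 against WT, 6 of 11 rose in astrocytes, against 3.20% of all genes, and 5 of 8 in microglia, against 4.74%. In TG_PS19 against PS19, 7 of 11 fell in astrocytes, against 3.88%, and 4 of 8 in microglia, against 4.64%. C4b stood at 54.2 CPM in WT astrocytes, 260 and 200 in PS19 and 47.8 in TG_PS19.

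Of the proteases that Serpina3-type inhibitors can bind, those of immune cell granules were nearly all at or close to 0. Over all kept nuclei Gzmb had 1 UMI, Gzma 2, Cma1 2, Mcpt4 1 and Ctsg and Elane 0, whereas Prtn3 had 102 in WT, 38 and 49 in PS19 and 31 in TG_PS19. Klk8, a neuronal kallikrein, had 84, 30, 30 and 71. Of 11 listed genes, 4 were tested in oligodendrocytes, where 1 rose in PS19 against WT (3.06% of all genes) and 1 fell in TG_PS19 against PS19 (3.19%). In astrocytes 3 were tested, and 1 fell in the first comparison, where 2.63% of all genes did, and 1 rose and 1 fell in the second, where 5.36% and 3.88% did. Klk6, a trypsin-like kallikrein of oligodendrocytes that is also on the preceding list, had 41 UMIs in WT oligodendrocytes (6.17 CPM), 155 and 104 in PS19 (31.8 and 16.7 CPM) and 26 in TG_PS19 (4.01 CPM). It changed by 1.98 (SE 0.26) and -2.49 (SE 0.28), both called. In astrocytes Klk6 had 10, 6, 10 and 0 UMIs and was called lower in TG_PS19 than in PS19. Htra1, a secreted protease abundant in astrocytes, stood at 662 CPM in WT astrocytes, 556 and 425 in PS19 and 657 in TG_PS19, and changed by -0.47 (SE 0.13) and 0.61 (SE 0.13).

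Nuclei with a Serpina3n UMI were then set against the other nuclei of the same class and library, as a description, since nuclei of 1 library are not replicates. Of 12 listed genes of disease-associated oligodendrocytes, 10 had more than 3 UMIs in the Serpina3n-positive oligodendrocytes of each PS19 library. Of these, 8 were higher there than in the other nuclei in both libraries, against 30.1% of 7338 genes by the same rule. This rule leaves out genes that are low in positive nuclei, and without it the number was 8 of 12. C4b stood at 543 CPM in the 97 positive nuclei of PS19 replicate 1 against 293 in the others, and at 467 CPM in the 98 of PS19 replicate 2 against 219. Klk6 stood at 109 against 27.1 CPM and at 47.5 against 14.9, ratios of 4.03 and 3.19. H2-D1 stood at 179 against 87.0 and at 134 against 66.7. Only these 3 genes of the list had intervals that lay apart in both libraries. H2-K1 was higher in replicate 1 only, at 25.5 against 21.1 and 17.8 against 18.3 CPM. Sgk1 was not higher, at 197 against 207 and 155 against 186 CPM. Positive nuclei were deeper, with medians of 2608 and 3524.5 UMIs against 2432 and 3034.5, and the part of depth was not tested.

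Of 19 listed pan-reactive genes, 10 had more than 3 UMIs in the positive astrocytes of each PS19 library. These 10 were higher there in both libraries, against 37.3% of 7917 genes by the same rule. This rule leaves out genes that are low in positive nuclei. Without it, 13 of the 19 were higher in both libraries and the rest were not, and no share over all genes was taken. Gfap stood at 1331 CPM in the 59 positive nuclei of PS19 replicate 1 against 487 in the others, and at 1004 CPM in the 48 of PS19 replicate 2 against 516. Osmr stood at 193 against 48.1 and at 173 against 47.8 CPM, ratios of 4.02 and 3.62. Stat3 stood at 239 against 138 and at 292 against 159. Cd109 was 5.17 times higher in replicate 1 but lower in replicate 2, at 7.70 CPM from 2 UMIs against 19.5. Of the 59 positive astrocytes of replicate 1, 29 lay in the Gfap-led cluster 8 and 20 in the Gfap-led cluster 14. Of the 48 in replicate 2, 18 and 13 did. These clusters held 43.1% and 44.1% of all astrocytes of the 2 libraries. Positive nuclei were deeper, with medians of 4344 and 5428.5 UMIs against 3658 and 4476.5 in astrocytes. The part of cluster and of depth in these ratios was not tested.

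**Figure D4:**
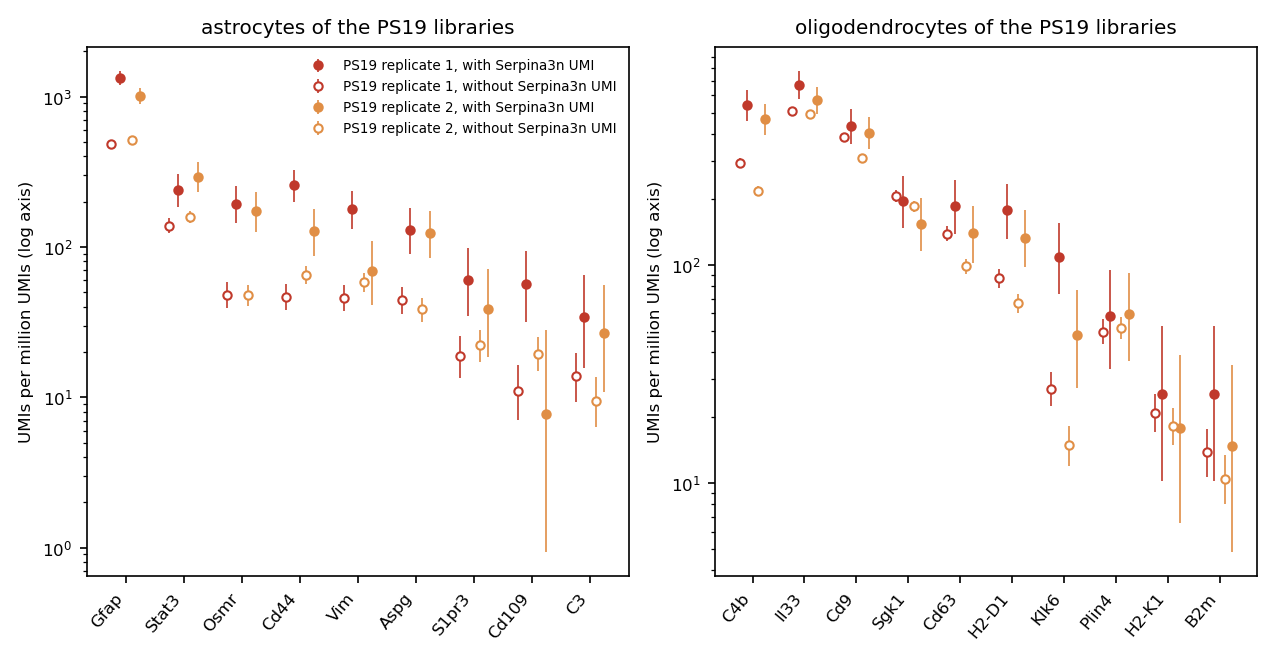
Levels of listed companion genes (horizontal axis) in nuclei with (filled) and without (open) a Serpina3n UMI, in astrocytes (left) and oligodendrocytes (right) of both PS19 libraries, in CPM on a log axis with exact 95% Poisson intervals. Gfap, Osmr, C4b, H2-D1 and Klk6 are higher in positive nuclei of both libraries, and Sgk1 is not.

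No gene had a high correlation with Serpina3n over all classes and libraries. Over 44 sums (11 classes in 4 libraries, which share libraries and depth) and 18034 genes, the highest Pearson correlations of log2(CPM + 1) were 0.59 for Gin1, 0.58 for Slc39a14, 0.57 for 1110038B12Rik, 0.56 for Zfp653 and 0.54 for Dhx37, given without a test. Of these, Slc39a14, a zinc and iron transporter of the acute phase, stood at 53.7 CPM in WT astrocytes, 103 and 113 in PS19 and 43.7 in TG_PS19. In oligodendrocytes it stood at 20.3, 49.8, 49.7 and 13.6 CPM, and in dentate granule neurons at 38.8, 42.8, 40.2 and 35.3. C4b, which moved with Serpina3n in glia, had 0.73 to 3.27 CPM in dentate granule neurons and a correlation of 0.28. Socs3 (0.08), Stat3 (0.08) and Osmr (-0.03) were lower still. Many of the sums held few Serpina3n UMIs, at most 6 in microglia and 2 in endothelial nuclei. Counting error in such sums lowers any correlation, so a low value cannot show that a gene varied apart from Serpina3n.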

How the data were processed

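The deposited values are raw UMI counts per gene and nucleus. Per the file headers, the authors ran Cell Ranger 7.1.0 to obtain them; the build was GRCm38, per the submitters' processing notes, and intron counting is not given in the sources used here. Of 55401 mouse identifiers, 55141 matched GENCODE M21 without their version number. The members and gene lists were chosen with earlier results of these data known.

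Nuclei with at least 500 UMIs, 300 genes and at most 5% mitochondrial UMIs were kept, and doublet candidates, scored against simulated doublets, were left out at 0.8% per 1000 barcodes. Clusters (Leiden, leidenalg 0.10.2, resolution 1.0, 15 neighbours, 30 components of 2000 variable genes without Serpina3, sex-linked and targeted genes) were named from 18 marker lists. A name needed 4 raised markers, or 50% of a list and at least 3, where raised meant a log2 fold of at least 1 and detection in 10% of the cluster. These naming limits, the merging of newly formed with other oligodendrocytes and the leaving of the cluster led by Sfta3-ps without a name were set after the clusters had been seen. All class names mean resemblance by markers.

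Counts were summed per class with at least 50 nuclei in every library (11 classes) and fitted over all 4 libraries with edgeR 4.0.16 (R 4.3.3): filterByExpr, TMM scaling, the quasi-likelihood F-test and Benjamini-Hochberg adjustment within a class, two-sided. Only the PS19 libraries give a spread (1 residual degree of freedom). The older edgeR handling of residual degrees of freedom was taken after the total calls of both had been seen. The fit was run on simulated oligodendrocyte counts with the same spread for every gene and no library effect. This cannot check whether the lone libraries vary like the PS19 pair. Intervals are exact (Poisson or Clopper-Pearson, 95%) and cover counting error only, and a count of 0 is given with the level of 3 counts.

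Genes named are the members, the 5 most like Serpina3n, and up to 3 called genes a list with the largest change in oligodendrocytes or astrocytes. Gfap, Stat3, Prtn3, Klk8, Gzmb and the other low proteases, Nr3c1, Lcn2, Plin4, Sgk1, Cd109, Slc13a1 and the other cluster-leading genes, Serpine2, Serpinb1a, Serpini1 and the clade A serpins were named after their values were seen. Promoter windows came from RefSeq (GRCm38.p6), transcripts from GENCODE M21, and alignments were global (Biopython 1.88). Alternatives are DESeq2 1.42.0, other scalings, filters, clusterings, thinning, sex calls and leaving out each PS19 library.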

Additional observations from a re-analysis of the deposited data

How the results depend on the processing

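Over 26 results and 14 alternatives, 273 values were recomputed: 262 counted as unmoved and 11 moved. A fold change counted as unmoved with the same call and, if called, the same direction. A count, or a fold change without a test, had to stay within 1.5 times, and a level within its interval. An uncalled fold change whose direction turned was thus counted as unmoved, as for Serpina3n in astrocytes in TG_PS19 against WT. Serpina3n stayed called in astrocytes and oligodendrocytes in PS19 against WT and in TG_PS19 against PS19 under every alternative with a test except 1. With DESeq2 the number called in TG_PS19 against PS19 was 1, since the adjusted p of Serpina3n in oligodendrocytes was not given (NA), which is not a lost call. Companion genes called over classes numbered 64, 61 and 6 of 404 pairs in PS19 against WT, TG_PS19 against PS19 and TG_PS19 against WT. DESeq2 gave 19, 23 and 1, as it called fewer genes in all: 406, 756 and 173 against 4226, 6793 and 3128. Thinning to 1000 UMIs, which leaves fewer counts and genes, gave 33 and 37 in the first 2, and 1553, 2061 and 768 calls in all. Keeping doublet candidates gave 1864 calls in TG_PS19 against WT, and Y-called TG_PS19 nuclei 2050. With Xist-called TG_PS19 nuclei alone, chosen after seeing the data as was the other handling of residual degrees of freedom, 10 were called in TG_PS19 against WT; the cause was not tested. Serpina3n in TG_PS19 astrocytes was 4.90 CPM with Y-called nuclei, above its interval, and 0.79 CPM in Xist-called TG_PS19 oligodendrocytes, below it; the cause was not tested. In oligodendrocyte precursors the log2 fold changes without PS19 replicate 1 were 1.14 and -1.24. Without 1 PS19 library, the log2 fold change of Serpina3n ran from 2.17 to 3.23 in astrocytes and 2.38 to 2.78 in oligodendrocytes (PS19 against WT), and from -3.54 to -2.48 and -3.45 to -3.06 (TG_PS19 against PS19), with no test. Scaling by library totals shifted the median gene by -0.10 in both TG_PS19 comparisons and turned the split of calls, from 4361 higher of 6793 to 3307 of 7484 in TG_PS19 against PS19, and from 2255 of 3128 to 1492 of 3267 in TG_PS19 against WT; the calls of Serpina3n did not change. No paired analysis was possible, since the labels name no pairs of libraries. WT and TG_PS19 are 1 library each, and at 13 to 32 UMIs their glial Serpina3n levels are known only to within the intervals given.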

Other observations

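Serpins of other clades changed in both directions in astrocytes. Of 20 listed genes, 12 were tested there, and 3 rose and 1 fell in PS19 against WT, where 3.20% of all genes rose and 2.63% fell, with a median log2 fold change of -0.06. Serping1, the inhibitor of the first complement component, had 52 UMIs in WT astrocytes (6.29 CPM), 52 and 75 in PS19 (21.3 and 22.5 CPM) and 24 in TG_PS19 (4.50 CPM), and changed by 1.77 (SE 0.29) and -2.10 (SE 0.34) in PS19 against WT and TG_PS19 against PS19, both called by edgeR. Serpinf1, which encodes pigment epithelium-derived factor, stood at 13.7 CPM in WT astrocytes, 29.4 and 19.2 in PS19 and 5.43 in TG_PS19, and was the one listed serpin called lower in TG_PS19 than in WT, by -1.18 (SE 0.34). Serpinf2, the plasmin inhibitor, had 3, 11, 11 and 2 UMIs in astrocytes and rose in PS19. Serpini1, neuroserpin, fell in PS19 astrocytes, from 33.1 CPM in WT to 19.6 and 21.6, and stood at 28.7 in TG_PS19.

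In oligodendrocytes 10 of these serpins were tested, and 3 fell in PS19 against WT, where 3.85% of all genes fell, with a median of -0.45. Serpinb1a stood at 91.9 CPM in WT, 68.4 and 55.0 in PS19 and 70.4 in TG_PS19. Serpine2, protease nexin 1, stood at 22.7, 16.0, 11.4 and 19.6 CPM, and Serpinf1 had 39, 8, 14 and 15 UMIs. Of the clade A serpins near the array, Serpina10 had 77, 28, 29 and 73 UMIs over all nuclei and Serpina1b 21, 14, 21 and 19, and no gene of that list was tested in astrocytes or oligodendrocytes.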
